A study of Homo sapiens with 9 samples.

Results

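Bleogen pB1 is a synthetic form of a disulfide-rich, EGF-like miniprotein of the cactus Pereskia bleo that acts as an agonist of EGFR, the receptor of epidermal growth factor (EGF). The comparison described here sets HaCaT cells incubated with bleogen pB1 (1 µM, 24 h) against untreated HaCaT cells, with 3 libraries on each side, chosen by their titles from the 9 libraries of the series. HaCaT is an immortalized human keratinocyte line, here wild type in both groups, and the other 3 libraries came from HaCaT cells given EGF (10 nM, 24 h). All cells were kept in DMEM with 10% serum, grown past confluence and moved to serum-free medium, which untreated cells received alone. The comparison asks which transcripts of a keratinocyte monolayer respond to the peptide. No source used here says that the 3 replicates of a group were separate cultures, so the p values below measure the spread between these libraries, which may be technical.

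EGFR is the main growth factor receptor of epidermal keratinocytes. Its ligands activate the ERK and PI3 kinase pathways, induce feedback genes and further ligands of the family, and drive the migration and proliferation that close a wound. Keratinocytes also make much of the cholesterol and fatty acid of the skin barrier, under the SREBP transcription factors, which are held back by INSIG proteins when sterols are plentiful. They express antiviral genes without infection, through factors such as STAT2 and IRF9 that type I interferon activates.

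The 6 libraries held between 20288417 and 21113447 expected counts (estimates that divide reads between the transcripts they fit), and a count of 3, taken as the floor of detection, corresponded to 0.142 to 0.148 CPM (counts relative to the library total), a limit that covers counting error only. Levels below are FPKM, fragments scaled for transcript length and library size, given for replicates 1, 2 and 3 in order with the untreated cells first, and fold changes come from the expected counts (edgeR quasi-likelihood test, Benjamini-Hochberg adjustment over 12394 genes). The 12 keratinocyte markers, among them KRT5, KRT14 and TP63, were all expressed, with summed levels of 6270 to 6849 FPKM in the untreated and 6253 to 7210 in the bleogen pB1 libraries. The markers of melanocytes, fibroblasts, endothelial cells and leukocytes summed to at most 1.85 FPKM for any of these cell types in any library, and 2 of the 4 melanocyte markers were at 0 in all 6 libraries. Replicates varied more with bleogen pB1 than without, with a biological coefficient of variation of 0.0833 against 0.0497 in untreated cells.

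Most genes that passed the test with bleogen pB1 were lower than in untreated cells, and by small amounts. Differentially expressed genes (DEGs, with an adjusted p up to 0.05 and a log2 fold change, log2FC, of 0.5 or more in either direction) numbered 183, or 1.48% of the tested genes, of which 27 (0.218%) were higher and 156 (1.26%) lower after treatment. Of these, 152 changed by less than 1 on the log2 scale, and the median of all tested genes was −0.001. Genes of 3 lists made up 55 of the 156 lower DEGs: the interferon response, the synthesis and uptake of sterols, and the synthesis of fatty acids. All lists used here were chosen with earlier results of these data known. Their counts, set beside the shares over all tested genes, describe the lists and do not test them. Higher DEGs included wound keratins, secreted proteases and tubulins. In all 183 DEGs the 3 treated values lay outside the range of the 3 untreated values in CPM, which held for 29.1% of all tested genes (14.4% higher and 14.7% lower), so that separation of the groups alone says little about a gene. In what follows, a gene "rose" or "fell" where its adjusted p was at most 0.05, which 4.11% of the tested genes met (1.56% higher and 2.55% lower), and is called a DEG where it also passed the fold-change limit.

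**Figure D1:**
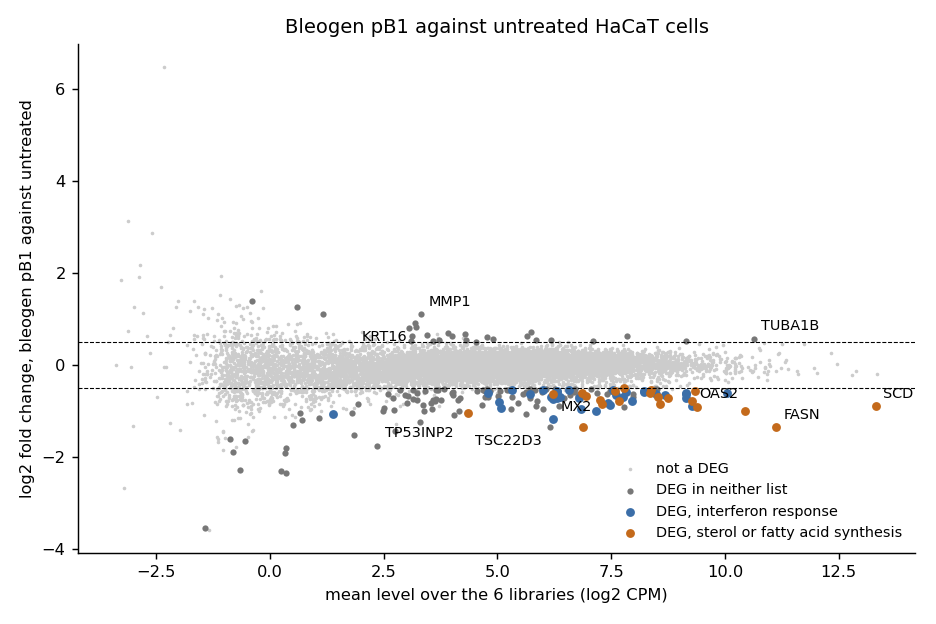
Log2 fold change of each tested gene (bleogen pB1 against untreated, edgeR) against its mean level over the 6 libraries in log2 CPM. Each point is a gene, dashed lines mark the limits of ±0.5, and coloured points are DEGs of the interferon list (blue) and of the sterol and fatty acid lists (orange), all of which lie below the lower line, several of them among the most abundant transcripts.

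**Figure D2:**
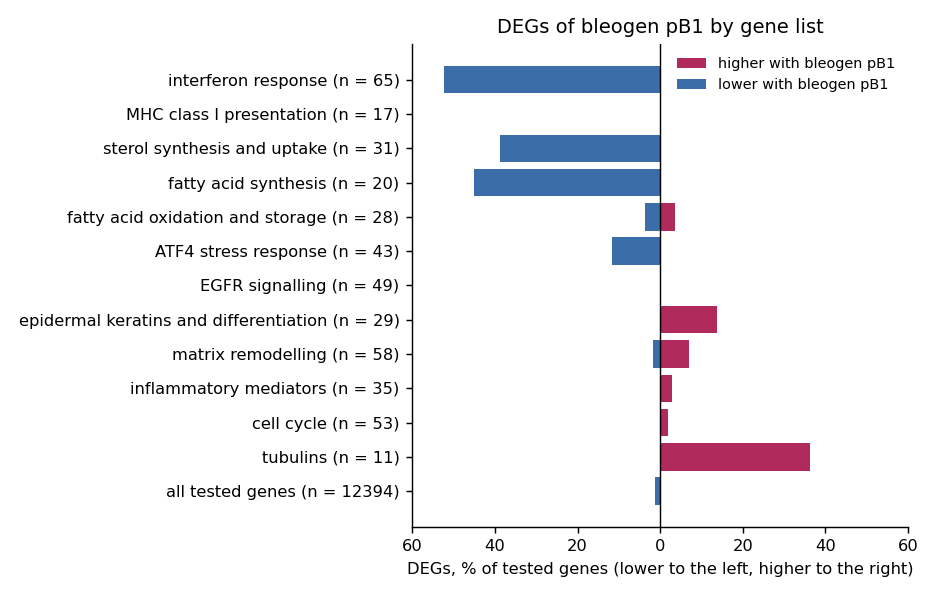
Share of the tested genes of each list that were DEGs, in percent, drawn to the left for genes lower and to the right for genes higher with bleogen pB1, with the number of tested genes in brackets. The interferon, sterol and fatty acid lists extend only to the left and the tubulins only to the right, and EGFR signalling and MHC class I presentation have no bar.

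The 3 treated libraries did not respond equally. Over the 156 lower DEGs the median difference from the untreated mean was −0.57 (log2 CPM) in replicate 1, −0.86 in replicate 2 and −0.70 in replicate 3, and 128 of these genes had their lowest value in replicate 2. Over the 27 higher DEGs the medians were 0.44, 0.78 and 0.64 in the same order. Replicate 1 lay nearest to the untreated cells for 124 of the lower and 19 of the higher DEGs. These values describe genes that were selected in the same libraries. Among whole lists the medians in replicates 1, 2 and 3 were −0.36, −0.47 and −0.45 for the sterol list, −0.40, −0.48 and −0.51 for fatty acid synthesis, where replicate 3 was lowest, and 0.15, 0.42 and 0.27 for the cell cycle list. Without replicate 1 of the treated libraries the count of DEGs was 436, without replicate 2 it was 109 and without replicate 3 it was 102, as it was without untreated replicate 1.

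**Figure D3:**
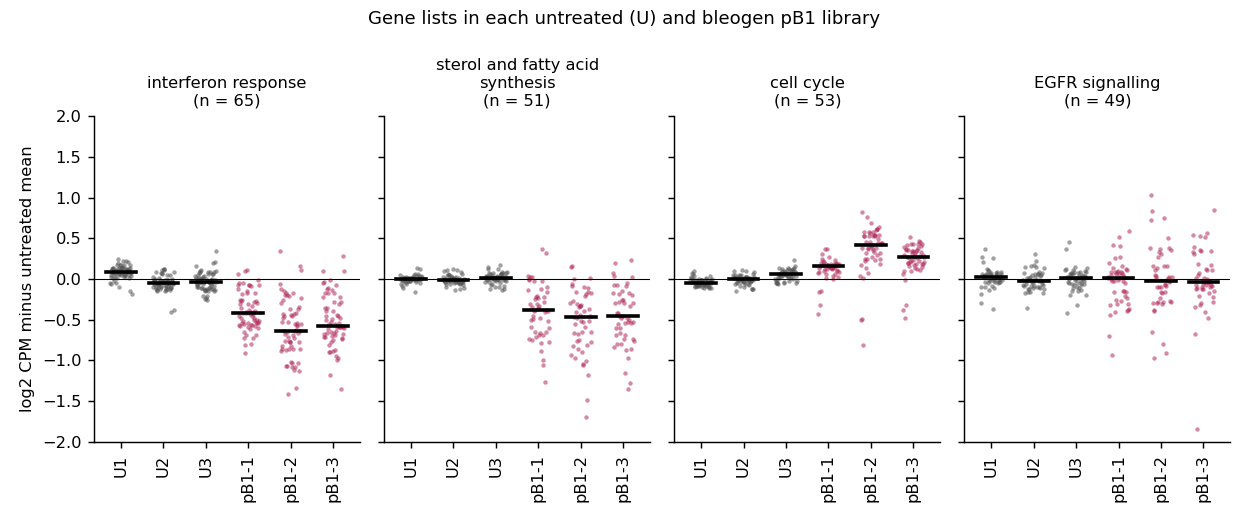
Tested genes of 4 groups of lists in each untreated (U) and bleogen pB1 library, as log2 CPM minus the mean of the untreated libraries. Each point is a gene and each black line the median of the library. The lines of the interferon and lipid panels lie below 0 in all 3 treated libraries, those of the cell cycle genes over 0 and highest in replicate 2, and those of EGFR signalling close to 0 in all 6 libraries.

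Fatty acid synthesis held the largest falls among abundant transcripts. Of the 20 members of the list, all tested, 9 were DEGs and all 9 were lower, against 1.26% of all tested genes. FASN, the fatty acid synthase that builds palmitate (NCBI gene 2194, chr17:82078338-82098294, GRCh38), stood at 437, 387 and 451 FPKM in the 3 untreated libraries and at 178, 153 and 178 FPKM in the bleogen pB1 libraries. The groups are far apart relative to their spread, with log2FC −1.34 ± 0.10 SE, adjusted p = 0.00010 in edgeR. ACSS2, which makes cytosolic acetyl-CoA from acetate, had 65.1, 63.1 and 68.6 FPKM without and 31.9, 20.5 and 25.99 FPKM with the peptide (log2FC −1.35 ± 0.12 SE, adjusted p = 0.00017 in edgeR). ACLY, which makes the same substrate from citrate, went from 441, 443 and 478 to 229, 229 and 236 FPKM (log2FC −0.99 ± 0.13 SE, adjusted p = 0.00084 in edgeR). The acetyl-CoA carboxylases that commit this substrate to the pathway did not pass the test: ACACA had an edgeR log2 fold change of −0.19 (adjusted p = 0.060) and ACACB of −0.53 (adjusted p = 0.089).

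Enzymes acting on the finished chain were lower too. SCD, the Δ9 desaturase that makes oleate, was the most abundant transcript of the list, at 2701, 2478 and 2574 FPKM in untreated and 1655, 1158 and 1438 FPKM in treated cells, giving log2FC −0.88 ± 0.10 SE, adjusted p = 0.00056 in edgeR. LPIN1, a phosphatidate phosphatase of triglyceride synthesis, was at 50.5, 45.99 and 53.4 FPKM without and at 29.3, 29.6 and 29.9 FPKM with bleogen pB1. Its 3 treated values hardly differed, and it had log2FC −0.77 ± 0.06 SE, adjusted p = 0.00010 in edgeR. LPCAT3, which places polyunsaturated chains into phospholipids, fell from 72.6, 70.4 and 69.9 to 47.3, 45.7 and 43.1 FPKM (log2FC −0.67 ± 0.06 SE, adjusted p = 0.00015 in edgeR). The elongase ELOVL5 reached the fold-change limit with −0.50 (edgeR adjusted p = 0.00030), while FADS1 (−0.48, adjusted p = 0.00084) and ELOVL6 (−0.29, adjusted p = 0.035) fell by less than it in the same edgeR fit. Over the 20 genes the median log2 fold change was −0.49, against −0.001 for all tested genes.

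The regulator SREBF1, which encodes the SREBP that favours fatty acid genes, was itself a DEG. It was read at 225, 209 and 219 FPKM in untreated and 127, 106 and 121 FPKM in treated libraries, log2FC −0.90 ± 0.09 SE, adjusted p = 0.00020 in edgeR. SREBF2, the paralogue that favours sterol genes, had 121, 114 and 114 against 107, 96.02 and 105 FPKM, groups that do not overlap but did not pass the test (log2FC −0.20 ± 0.07 SE, adjusted p = 0.12 in edgeR). The files count genes and not isoforms, and hold no measure of SREBP cleavage.

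The sterol list was also lower in most of its members. Of 34 members 31 were tested, 12 were DEGs, all lower (1.26% of all tested genes), and 22 fell by adjusted p alone (2.55% of all tested genes), with a median log2 fold change of −0.43. INSIG1, a target of SREBP that retains the SREBP escort SCAP in the endoplasmic reticulum, was at 172, 170.3 and 177 FPKM in untreated and 105, 92.6 and 98.6 FPKM in treated cells (log2FC −0.83 ± 0.07 SE, adjusted p = 0.00015 in edgeR). Its relative INSIG2 (−0.01, edgeR adjusted p = 0.97) and SCAP (0.08, edgeR adjusted p = 0.45) did not pass the test.

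Of the 12 enzymes from acetyl-CoA to lanosterol, 9 fell and 5 were DEGs, among them HMGCS1, MVD and LSS. HMGCS1, which makes the precursor of mevalonate, had 101, 95.8 and 113 FPKM without and 68.97, 59.2 and 64.8 FPKM with bleogen pB1 (log2FC −0.70 ± 0.08 SE, adjusted p = 0.00051 in edgeR). LSS, which closes the rings of lanosterol, went from 113, 111 and 114 to 72.1, 67.6 and 72.4 FPKM (log2FC −0.69 ± 0.08 SE, adjusted p = 0.00051 in edgeR). MVD had the largest fall of the 5, −0.84 (SE 0.11, edgeR adjusted p = 0.0011). Of the 9 enzymes after lanosterol 8 fell, and CYP51A1 and MSMO1 were DEGs. MSMO1, a C4 methyl sterol oxidase, was read at 91.1, 93.96 and 91.6 FPKM in untreated cells and at 56.7, 55.8 and 53.9 FPKM in treated cells, with little spread in either group (log2FC −0.76 ± 0.07 SE, adjusted p = 0.00020 in edgeR). DHCR7, one of the last enzymes of the pathway, fell by less than the limit (−0.45, edgeR adjusted p = 0.0014).

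All 4 tested genes of sterol uptake and transport were DEGs. Among them was MYLIP, a ubiquitin ligase induced by sterols, at 9.9, 9.5 and 10.1 FPKM in untreated and 5.35, 4.76 and 4.46 FPKM in treated libraries (log2FC −1.03 ± 0.10 SE, adjusted p = 0.00017 in edgeR). The sterol carrier STARD4 was lower as well (−0.63, edgeR adjusted p = 0.0014). The exporters ABCA1 and ABCG1 did not pass the count filter.

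Promoters were searched for the sterol regulatory element as TCACNCCAC on either strand, over 250 bases before to 50 bases after each start listed by RefSeq on GRCh38.p14. The letters were present in 1.13% of all 35116 promoters, in 0 of the 9 sterol DEGs with an entry and in 1 of 8 fatty acid DEGs, MID1IP1, so no sequence is shown. This says only that these letters are not in these windows.

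Many of these lipid genes differed from their level in EGF-treated cells. Dose and agent both differ between the treatments (1 µM and 10 nM), so a difference between them cannot be assigned to either. Taking both lists together, 21 of the 51 tested genes were DEGs lower with bleogen pB1 than with EGF in the direct edgeR contrast, against 10.8% of all tested genes, and 6 were higher, against 18.0%. The 2 lists differed in this. Of 31 tested sterol genes 16 were lower and 1 was higher, whereas of 20 fatty acid genes 5 were lower and 5 higher. For FASN the EGF libraries had 298, 402 and 349 FPKM, between the other groups in 2 libraries and within the untreated range in 1 (bleogen pB1 against EGF, log2 −1.12, edgeR adjusted p = 1.7e-06). MSMO1 (91.7, 115 and 106 FPKM with EGF, log2 −0.99, edgeR adjusted p = 2.6e-07) and LPIN1 (47.9, 52.9 and 51.8 FPKM with EGF, log2 −0.85, edgeR adjusted p = 2.3e-07) were also lower with bleogen pB1 than with EGF. SREBF1 and SCD were not: SREBF1 had 109, 139.6 and 121 FPKM with EGF, not separable from bleogen pB1 (log2 −0.14, edgeR adjusted p = 0.17), and SCD had 973, 1015 and 985 FPKM, below all bleogen pB1 libraries (log2 0.44, edgeR adjusted p = 0.0029). Of the 21 lipid DEGs of bleogen pB1, 14 were among those lower than with EGF, against 10.8% of all tested genes. These 21 were selected as low in the same bleogen pB1 libraries, which favours a lower value in this contrast too. The count of 14 is therefore no separate evidence of a difference from EGF.

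**Figure D4:**
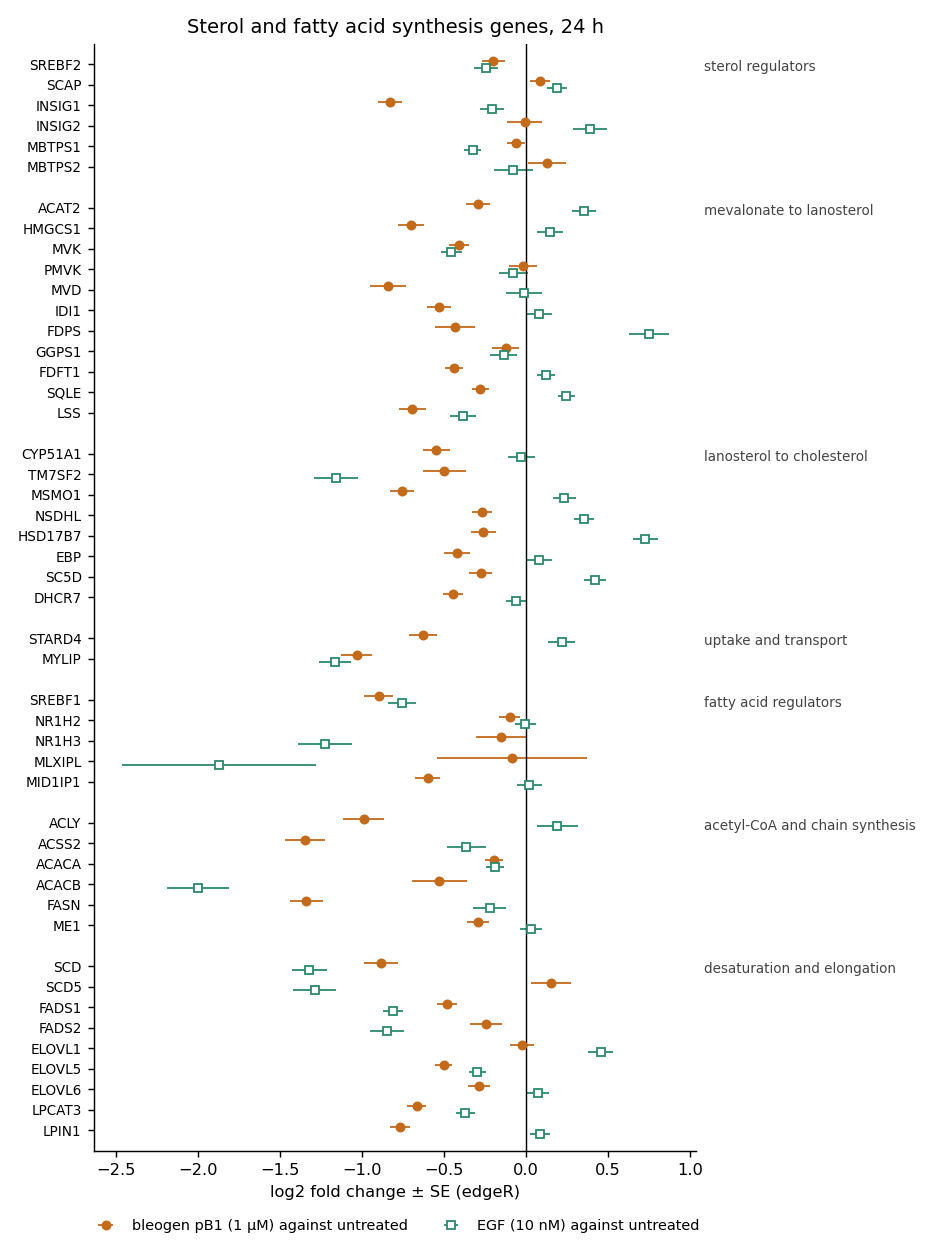
Log2 fold change against untreated cells with its SE (edgeR) for 47 of the 51 tested genes of sterol and fatty acid synthesis, for bleogen pB1 (filled orange circles) and EGF (open green squares), grouped by role. Both treatments were compared with the same untreated libraries. The orange circles lie left of 0 for nearly all biosynthetic enzymes, while the green squares scatter around 0 for the sterol enzymes and lie far to the left for SCD.

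Genes that burn or store fatty acids did not move as a group. Of 28 tested, 1 was a DEG higher (0.218% of all tested genes) and 1 a DEG lower (1.26% of all tested genes), and the median was 0.01. CPT1A, which admits long-chain fatty acids to mitochondria, rose from 22.2, 21.7 and 23.7 to 30.5, 34.2 and 34.2 FPKM (log2FC 0.54 ± 0.06 SE, adjusted p = 0.00051 in edgeR). ACOT1, a cytosolic acyl-CoA thioesterase whose reads may be shared with the nearly identical ACOT2, was at 7.69, 7.17 and 7.24 FPKM in untreated and 3.75, 1.56 and 3.02 FPKM in treated libraries (log2FC −1.43 ± 0.23 SE, adjusted p = 0.0041 in edgeR).

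The interferon response was the list with the most DEGs. Of 65 tested genes 34 were DEGs, all lower, against 1.26% of all tested genes, and 43 fell by adjusted p, against 2.55%. None rose (edgeR, with 0 higher at an unadjusted p under 0.05, against 11.7% of all tested genes, and 0 higher DEGs with DESeq2 or limma). A negative log2 fold change was seen in 62 of the 65, against 6227 of all 12394 tested genes, with a median of −0.54. Antiviral effectors, which were 44 of the 65 tested genes, held 26 of the 34, near their share of the list. MX2, a GTPase that hinders nuclear import of HIV, had 46.5, 38.1 and 34.04 FPKM in untreated and 21.03, 14.9 and 17.6 FPKM in treated libraries, the largest fall of the list among genes with at least 50 counts (log2FC −1.17 ± 0.13 SE, adjusted p = 0.00045 in edgeR). OAS2, which makes the oligoadenylate that activates RNase L, was at 287, 243 and 237 against 157, 126 and 140.3 FPKM (log2FC −0.89 ± 0.09 SE, adjusted p = 0.00022 in edgeR), and its neighbour on chromosome 12, OAS1, at 205, 189 and 178 against 122, 106 and 110.4 FPKM (log2FC −0.78 ± 0.08 SE, adjusted p = 0.00022 in edgeR). Untreated replicate 1 was the highest of all 6 libraries for each of these genes, and the treated libraries stayed below the lowest untreated one.

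Genes of the response that act on RNA or on other proteins gave lower values as well. DDX60L, a helicase-like antiviral protein, had 26.7, 21.6 and 23.4 FPKM without and 13.8, 11.1 and 12.5 FPKM with the peptide (log2FC −0.96 ± 0.09 SE, adjusted p = 0.00017 in edgeR). IFIT1, which binds viral RNA lacking a host cap, had 129, 116 and 118 against 83.9, 72.1 and 77.7 FPKM (log2FC −0.65 ± 0.07 SE, adjusted p = 0.00028 in edgeR). PARP9, a partner of the ubiquitin ligase DTX3L, had 89.5, 80.5 and 84.6 against 60.01, 54.4 and 55.9 FPKM (log2FC −0.57 ± 0.06 SE, adjusted p = 0.00033 in edgeR). IFIT3 had 306, 273 and 289.8 against 204, 183 and 192 FPKM (log2FC −0.61 ± 0.07 SE, adjusted p = 0.00040 in edgeR). BATF2, a low-level transcription factor, had 2.05, 1.31 and 2.09 against 1.11, 0.85 and 0.67 FPKM (log2FC −1.07 ± 0.24 SE, adjusted p = 0.032 in edgeR) and was no longer called without replicate 1 or 3 of the untreated or without replicate 2 or 3 of the bleogen pB1 libraries. Not all members moved: IFIT2 (−0.12, edgeR adjusted p = 0.33), OASL (−0.04, edgeR adjusted p = 0.86) and DDX60 (−0.11, edgeR adjusted p = 0.32) did not pass the test, although IFIT2 lies beside IFIT1 and IFIT3 in the genome.

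The DEGs of the list are shown with their promoters because interferon-induced genes are known for a sequence element, the interferon-stimulated response element, searched here as GAAA, any 2 bases and GAAA on either strand in the same RefSeq windows (GRCh38.p14). It was present in 3.57% of all 35116 promoters, in 35 of the 53 members of the list with an entry (66.0%), in 16 of 26 DEGs (61.5%) and in 19 of 27 tested members that were not DEGs (70.4%). The letters were thus no more common in the DEGs than in the other tested members. The 3 DEGs with a match and the smallest adjusted p are printed 5′ to 3′ on the strand of the gene, with the matches in capitals: DDX60L at chr4:168480443-168480742 (minus strand), IFIT1 at chr10:89392373-89392672 (plus strand) and PARP9 at chr3:122564251-122564550 (minus strand, 1 of 2 promoters of the gene).
DDX60L: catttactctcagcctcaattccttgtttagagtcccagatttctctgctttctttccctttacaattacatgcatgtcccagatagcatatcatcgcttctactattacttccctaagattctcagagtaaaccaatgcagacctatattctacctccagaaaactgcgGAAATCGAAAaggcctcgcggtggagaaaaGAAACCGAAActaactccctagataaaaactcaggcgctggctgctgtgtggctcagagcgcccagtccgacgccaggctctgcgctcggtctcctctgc
IFIT1: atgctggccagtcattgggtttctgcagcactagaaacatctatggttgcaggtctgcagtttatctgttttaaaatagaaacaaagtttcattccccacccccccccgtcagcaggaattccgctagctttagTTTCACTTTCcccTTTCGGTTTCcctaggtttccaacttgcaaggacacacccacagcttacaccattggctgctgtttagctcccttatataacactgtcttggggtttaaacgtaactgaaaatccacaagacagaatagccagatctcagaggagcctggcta
PARP9: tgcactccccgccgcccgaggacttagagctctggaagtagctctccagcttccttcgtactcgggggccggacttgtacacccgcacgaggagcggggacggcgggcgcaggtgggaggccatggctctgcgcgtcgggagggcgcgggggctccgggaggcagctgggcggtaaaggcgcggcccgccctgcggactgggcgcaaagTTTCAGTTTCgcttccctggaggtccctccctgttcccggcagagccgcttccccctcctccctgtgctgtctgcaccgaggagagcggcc
DDX60L and IFIT1 hold 2 matches each and PARP9 holds 1. In IFIT1 the matches are separated by 3 bases. The matches of IFIT1 and PARP9 read as TTTC on the strand of the gene, the reverse complement of the element. A match is a run of letters, and binding of a factor was not measured.

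Factors that carry the interferon signal fell too. STAT2 had 59.2, 53.3 and 51.4 FPKM in untreated and 40.2, 30.5 and 34.8 FPKM in treated cells (log2FC −0.65 ± 0.12 SE, adjusted p = 0.0073 in edgeR), a call lost without untreated replicate 1 or bleogen pB1 replicate 3. IRF9, its partner, fell by less than the limit, from 70.7, 66.6 and 64.4 to 54.9, 47.5 and 53.3 FPKM (log2FC −0.40 ± 0.10 SE, adjusted p = 0.039 in edgeR). IRF7, which is induced by interferon and amplifies it, had 81.7, 72.8 and 69.9 against 50.7, 43.03 and 46.5 FPKM (log2FC −0.70 ± 0.13 SE, adjusted p = 0.012 in edgeR), and was not called without untreated replicate 1 or without bleogen pB1 replicate 2 or 3. The receptor chains IFNAR1 (−0.06, adjusted p = 0.64) and IFNAR2 (0.17, adjusted p = 0.46) and the kinase TYK2 (−0.07, adjusted p = 0.50) did not pass the edgeR test. STAT2, IRF9 and IRF7 are members of the interferon list and are themselves induced by interferon.

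Most genes of the list were lower with EGF than with bleogen pB1. MX2 had 2.5, 3.17 and 2.66 FPKM with EGF and IFIT1 13.7, 13.1 and 12.9 FPKM, all below each bleogen pB1 library. In the direct edgeR contrast 55 of the 65 tested members were DEGs higher with bleogen pB1 than with EGF, against 18.0% of all tested genes, and 2 were lower, the feedback inhibitors SOCS1 (−2.30, edgeR adjusted p = 2.9e-06) and SOCS3 (−1.19, edgeR adjusted p = 3.0e-06). Of the 9 signal transducers and factors, 4 were among the 55. MHC class I presentation, which interferon also induces, had no DEG with bleogen pB1 among 17 tested genes by edgeR, DESeq2 or limma. This is near the share of 1.48% over all tested genes by edgeR. All 17 had a negative log2 fold change (median −0.25). At an unadjusted p under 0.05, 12 were lower (10.5% of all tested genes), and 3 fell by adjusted p (2.55% of all tested genes). Among these was HLA-E (−0.45, edgeR adjusted p = 0.030), a nonclassical class I chain, which had 113, 111 and 104 FPKM in untreated and 93.2, 70.5 and 79.9 FPKM in treated libraries.

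Genes of EGFR signalling, many of which receptor agonists are known to induce within hours, did not pass the thresholds with bleogen pB1 at 24 h. Of 49 tested ligands, receptors, feedback regulators and induced factors, none was a DEG by edgeR, DESeq2 or limma. DEGs were 1.48% of all tested genes by edgeR, so a count of 0 among 49 is near that share. At an unadjusted p under 0.05, 7 were higher and 7 lower (11.7% and 10.5% of all tested genes). EGFR itself had 84.5, 78.2 and 83.04 FPKM in untreated and 85.2, 67.5 and 82.9 FPKM in treated libraries, groups that overlap (log2FC −0.07 ± 0.10 SE, adjusted p = 0.71 in edgeR). ERRFI1, a feedback inhibitor of EGFR, had 9.74, 9.86 and 10.5 against 9.9, 10.5 and 9.42 FPKM (log2FC −0.03 ± 0.07 SE, adjusted p = 0.84 in edgeR). DUSP6, a phosphatase that inactivates ERK, was the only member with an adjusted p of at most 0.05, and it fell, from 17.98, 17.02 and 19.7 to 15.3, 15.2 and 15.04 FPKM (log2FC −0.28 ± 0.07 SE, adjusted p = 0.035 in edgeR).

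The induced ligands HBEGF and AREG and the transcription factor gene FOSL1 had positive fold changes that did not pass the test. HBEGF had 1.22, 1.43 and 1.98 FPKM in untreated and 1.54, 3.19 and 2.25 FPKM in treated libraries, groups that overlap (log2FC 0.57 ± 0.23 SE, adjusted p = 0.16 in edgeR). AREG had 2.96, 3.52 and 3.71 against 3.93, 5.78 and 4.56 FPKM, without overlap (log2FC 0.46 ± 0.14 SE, adjusted p = 0.083 in edgeR). FOSL1, an AP-1 subunit, had 23.3, 23.5 and 24.6 against 25.4, 40.9 and 36.05 FPKM, where replicate 1 was barely above the untreated cells (log2FC 0.49 ± 0.13 SE, adjusted p = 0.053 in edgeR). Without bleogen pB1 replicate 1 all 3 became DEGs, with log2 fold changes of 0.80, 0.58 and 0.66. That fit had 436 DEGs in all, against 183 in the main fit. Of 18 alternatives, HBEGF and AREG became DEGs in 1 each and FOSL1 in 2. In EGF-treated cells, also at 24 h, the values were 42.05, 45.1 and 42.8 FPKM for HBEGF, 66.6, 67.6 and 66.9 FPKM for AREG, 282, 251 and 244 FPKM for FOSL1 and 77.1, 68.8 and 74.01 FPKM for DUSP6. Over the 49 tested genes of the list, 24 were DEGs lower with bleogen pB1 than with EGF in the direct edgeR contrast, against 10.8% of all tested genes. Another 8 were higher, against 18.0%.

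Keratins of the wound edge rose. Of 29 tested genes of keratins and differentiation, 4 were DEGs and all were higher, against 0.218% of all tested genes, but 1 was left as a DEG without untreated replicate 3. KRT16, a keratin of wounded and hyperproliferative epidermis, had 3.87, 4.61 and 3.55 FPKM in untreated and 8.12, 7.08 and 8.09 FPKM in treated libraries (log2FC 0.93 ± 0.15 SE, adjusted p = 0.0036 in edgeR). KRT6A, its partner, had 202, 205 and 194 against 261, 314 and 299 FPKM (log2FC 0.52 ± 0.08 SE, adjusted p = 0.0026 in edgeR), under the fold-change limit without untreated replicate 3 (0.49) or bleogen pB1 replicate 2 (0.46). KRT17, the third of these keratins, rose from 1397, 1531 and 1261 to 2259, 1671 and 1988 FPKM, just under the limit (log2FC 0.47 ± 0.10 SE, adjusted p = 0.027 in edgeR). Reads of KRT6A, KRT14, KRT16 and KRT17 may be shared with closely similar keratin genes and pseudogenes.

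Basal KRT14 rose from 1020, 1082 and 922 to 1475, 1384 and 1425 FPKM (log2FC 0.48 ± 0.07 SE, adjusted p = 0.0017 in edgeR), whereas KRT5, with which it pairs, had 3636, 3612 and 3270 against 3576, 2933 and 3350 FPKM (log2FC −0.11 ± 0.08 SE, adjusted p = 0.43 in edgeR). Of the suprabasal keratins, KRT1 had 3.4, 3.29 and 2.3 FPKM in untreated and 7.01, 3.98 and 5.19 FPKM in treated libraries (log2FC 0.83 ± 0.21 SE, adjusted p = 0.048 in edgeR), and lost its call on leaving out any library other than bleogen pB1 replicate 2. Its partner KRT10 had 9.67, 11.8 and 11.3 against 14.9, 14.04 and 11.2 FPKM (log2FC 0.27 ± 0.12 SE, adjusted p = 0.23 in edgeR), and the groups overlap. SPRR1B, a cornified envelope precursor with a mean of 33.2 counts, had 2.15, 1.56 and 1.2 against 4.43, 4.18 and 3.6 FPKM (log2FC 1.27 ± 0.24 SE, adjusted p = 0.010 in edgeR), and lost its call without untreated replicate 2 or 3. Other envelope genes were lower or not called, with involucrin (IVL) at −0.52 (edgeR adjusted p = 0.20) and filaggrin (FLG) at −0.44 (edgeR adjusted p = 0.045). KRT1 had 0.24, 0.14 and 0.12 FPKM with EGF and KRT6A 1014, 863 and 929 FPKM, so that the keratins KRT1 and KRT6A lay on opposite sides of the bleogen pB1 cells there.

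Matrix remodelling genes changed one by one. Of 58 tested genes 4 were DEGs higher, against 0.218% of all tested genes, and the median was 0.02. Only 1 was a DEG lower, which is near the share of 1.26% over all tested genes. MMP1, the interstitial collagenase that keratinocytes need to cross dermal collagen, had 3.78, 3.45 and 3.09 FPKM in untreated and 5.82, 10.1 and 6.82 FPKM in treated libraries, with replicate 2 highest (log2FC 1.12 ± 0.19 SE, adjusted p = 0.0068 in edgeR). MMP10, stromelysin 2, had 7.15, 7.53 and 6.12 against 11.7, 11.7 and 11.01 FPKM, without overlap (log2FC 0.70 ± 0.10 SE, adjusted p = 0.0019 in edgeR). PLAUR, the receptor that focuses urokinase on the cell surface, had 8.97, 8.7 and 8.48 against 13.5, 14.9 and 12.9 FPKM (log2FC 0.64 ± 0.10 SE, adjusted p = 0.0029 in edgeR). FST, the secreted activin antagonist follistatin, had 7.29, 9.32 and 8.97 against 11.2, 17.5 and 13.5 FPKM (log2FC 0.68 ± 0.14 SE, adjusted p = 0.021 in edgeR), and was called in 2 of the 6 fits that left out a library, those without untreated replicate 2 or bleogen pB1 replicate 1.

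CCN1, a matrix protein and target of YAP, was the 1 gene lower, at 28.8, 29.2 and 28.3 FPKM in untreated and 22.6, 17.6 and 20.9 FPKM in treated cells (log2FC −0.52 ± 0.09 SE, adjusted p = 0.0075 in edgeR), and fell under the limit without bleogen pB1 replicate 2 (−0.43). TGFB1 (−0.07, edgeR adjusted p = 0.68) and ACTA2 (−0.50, edgeR adjusted p = 0.14), a marker of myofibroblasts, did not pass the test. MMP10 was the exception among the higher matrix genes in its level with EGF, 3.41, 3.22 and 3.38 FPKM, which is below the untreated cells (log2 −0.99 against them, edgeR adjusted p = 7.1e-06), whereas MMP1 had 30.8, 22.4 and 27.5 FPKM, PLAUR 37.1, 45.9 and 43.6 FPKM and FST 102, 90.4 and 104 FPKM.

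**Figure D5:**
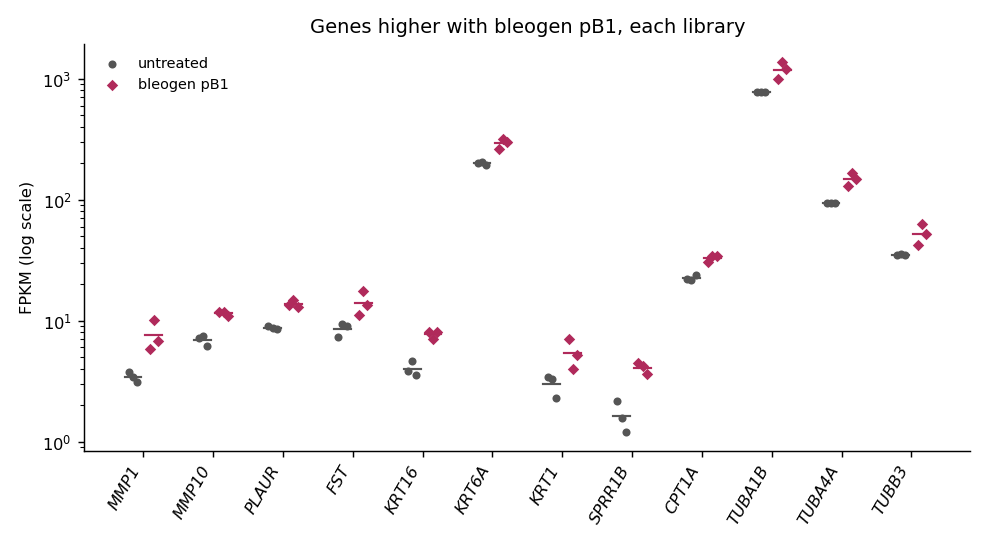
FPKM (log scale) of 12 genes that were DEGs higher with bleogen pB1, in each untreated (grey circles) and treated (red diamonds) library, with the mean of each group as a line. The groups do not overlap in any gene shown, the treated values spread more than the untreated ones in most, and the levels range from 1.2 FPKM for SPRR1B to 1362 FPKM for TUBA1B.

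Tubulins and genes of DNA replication and mitosis were slightly higher. Of 11 tested tubulins 4 were DEGs higher, against 0.218% of all tested genes, and 6 rose by adjusted p, against 1.56%, with a median of 0.34. The 4 became 2 without untreated replicate 1 or bleogen pB1 replicate 3 and 1 without bleogen pB1 replicate 2. TUBA4A was at 92.99, 94.4 and 94.3 FPKM in untreated and 129, 166 and 149 FPKM in treated libraries, with almost equal values among untreated cells (log2FC 0.63 ± 0.07 SE, adjusted p = 0.00059 in edgeR). TUBA1B, the most abundant of them, had 782, 779.9 and 782 against 985, 1362 and 1212 FPKM (log2FC 0.58 ± 0.09 SE, adjusted p = 0.0040 in edgeR) and was under the limit without bleogen pB1 replicate 2 (0.47). TUBB2A (9.99, 10.8 and 10.97 against 13.6, 16.9 and 17.2 FPKM, log2FC 0.56 ± 0.11 SE, adjusted p = 0.011 in edgeR) and TUBB3 (34.6, 35.6 and 35.1 against 42.1, 62.8 and 51.8 FPKM, log2FC 0.55 ± 0.11 SE, adjusted p = 0.013 in edgeR) kept their calls in 3 and 1 of the 6 fits without a library. Tubulin genes are closely similar in sequence, so reads may be shared among them.

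Of 53 tested cell cycle genes 1 was a DEG, higher, against 0.218% of all tested genes. It was MCM10, a replication origin factor, with 10.5, 10 and 11.7 FPKM in untreated and 13.9, 18.4 and 15.5 FPKM in treated libraries (log2FC 0.56 ± 0.10 SE, adjusted p = 0.0074 in edgeR), lost without untreated replicate 1 or 2 or bleogen pB1 replicate 2. By adjusted p alone 17 rose, against 1.56% of all tested genes, among them 10 of 20 replication and 6 of 22 mitosis genes, and all tested replication and mitosis genes had a positive log2 fold change. This count is fragile: it was 35 without bleogen pB1 replicate 1 and 0 without untreated replicate 1. MKI67, the proliferation antigen Ki-67, had 39.5, 35.4 and 41.1 against 39.5, 48.7 and 47.9 FPKM (log2FC 0.22 ± 0.09 SE, adjusted p = 0.20 in edgeR), and CCND1, the cyclin D1 that growth factors induce, 152, 153 and 155 against 162, 159 and 162 FPKM (log2FC 0.06 ± 0.05 SE, adjusted p = 0.56 in edgeR). Cyclin D2 (CCND2) fell by less than the limit (−0.44, edgeR adjusted p = 0.0014).

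The ATF4 list, which covers amino acid supply under stress, had 5 DEGs among 43 tested genes, all lower, against 1.26% of all tested genes, with a median of −0.10. The count was 3 without bleogen pB1 replicate 3. DDIT4, an inhibitor of mTORC1, was at 171, 178 and 187 FPKM in untreated and 107, 89.3 and 95.7 FPKM in treated libraries (log2FC −0.90 ± 0.16 SE, adjusted p = 0.0083 in edgeR), and was not called without bleogen pB1 replicate 3. TRIB3, a pseudokinase that restrains the response, had 57.4, 58.5 and 66 against 36.95, 41.9 and 40.9 FPKM (log2FC −0.62 ± 0.10 SE, adjusted p = 0.0046 in edgeR), against 73.4, 102 and 95.7 FPKM with EGF. PCK2, the mitochondrial PEP carboxykinase, had 24.5, 25.6 and 28.4 against 18.1, 16.8 and 18.8 FPKM (log2FC −0.57 ± 0.08 SE, adjusted p = 0.0018 in edgeR), and the tryptophanyl-tRNA synthetase WARS1, which interferon also induces, 112, 99.6 and 111 against 80.95, 69.5 and 74.97 FPKM (log2FC −0.54 ± 0.07 SE, adjusted p = 0.00084 in edgeR), under the limit without bleogen pB1 replicate 2 (−0.49). CTH, cystathionine gamma-lyase, was the fifth, at −0.51 (edgeR adjusted p = 0.028). ATF4 itself (−0.19, adjusted p = 0.083), DDIT3 (−0.49, adjusted p = 0.16) and ASNS (−0.35, adjusted p = 0.20), asparagine synthetase, did not pass the edgeR test.

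Inflammatory mediators were mostly near the floor or not called. Of 50 members 35 were tested and 1 was a DEG, higher, against 0.218% of all tested genes. It was PTGER4, a receptor of prostaglandin E2, with 2.16, 1.98 and 2.22 FPKM in untreated and 2.91, 3.1 and 3.23 FPKM in treated libraries (log2FC 0.52 ± 0.12 SE, adjusted p = 0.028 in edgeR). PTGER4 kept its call in the fit without bleogen pB1 replicate 1 alone of the 6 that left out a library. IL1B had 10.4, 9.11 and 9.78 against 9.07, 11.6 and 10.04 FPKM (log2FC 0.04 ± 0.11 SE, adjusted p = 0.85 in edgeR) and CXCL8 0.12, 0.48 and 0.3 against 0.51, 0.52 and 0.2 FPKM (log2FC 0.22 ± 0.48 SE, adjusted p = 0.83 in edgeR), and the sign of both depends on which library is left out. CD68, a lysosomal glycoprotein used as a macrophage marker and expressed in these keratinocytes, had 6.61, 6.82 and 6.53 against 6.49, 6.16 and 5.74 FPKM (log2FC −0.14 ± 0.10 SE, adjusted p = 0.41 in edgeR). TNF, at 0.12, 0.24 and 0.15 FPKM in untreated and 0.09, 0.21 and 0.03 FPKM in treated libraries, did not pass the count filter, so a change in it was not detectable at this depth.

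Several of the largest changes lie outside these lists. TSC22D3, which encodes the glucocorticoid-induced leucine zipper GILZ, had 59.1, 55.6 and 62.3 FPKM in untreated and 26, 20.8 and 23.5 FPKM in treated libraries (log2FC −1.34 ± 0.18 SE, adjusted p = 0.0013 in edgeR). TP53INP2, a regulator of autophagy, had the largest fall among genes with at least 50 counts, from 2.56, 2.3 and 2.21 to 1, 0.52 and 0.62 FPKM (log2FC −1.75 ± 0.34 SE, adjusted p = 0.014 in edgeR), and kept its call without untreated replicate 3 or bleogen pB1 replicate 1 only. DOCK8, an exchange factor for CDC42, had 0.75, 0.85 and 0.99 against 0.34, 0.18 and 0.39 FPKM (log2FC −1.51 ± 0.26 SE, adjusted p = 0.0062 in edgeR), and MUC4, a membrane mucin, 1.61, 1.28 and 1.46 against 0.77, 0.33 and 0.65 FPKM (log2FC −1.23 ± 0.19 SE, adjusted p = 0.0035 in edgeR). Both are low-level transcripts.

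A pair of enzymes that act on retinoids were DEGs in opposite directions. DHRS3, which reduces retinal to retinol and is induced by retinoic acid, fell from 15.6, 16.03 and 16.7 to 9.3, 6.04 and 7.61 FPKM (log2FC −1.09 ± 0.19 SE, adjusted p = 0.0077 in edgeR), lost without bleogen pB1 replicate 3. RDH16, a retinol dehydrogenase, rose from 1.71, 2.2 and 1.68 to 3.06, 3.4 and 3.61 FPKM (log2FC 0.82 ± 0.15 SE, adjusted p = 0.0077 in edgeR), lost without untreated replicate 1 or 3 or bleogen pB1 replicate 3, and had 0.41, 0.3 and 0.29 FPKM with EGF. MALL, a raft-associated membrane protein, had 13.2, 15.2 and 13.8 FPKM without and 19.4, 28.97 and 22.5 FPKM with bleogen pB1 (log2FC 0.73 ± 0.11 SE, adjusted p = 0.0035 in edgeR). SLCO4A1, an organic anion transporter that carries thyroid hormone, had 2.97, 3.09 and 3.63 against 4.07, 6.16 and 5.31 FPKM (log2FC 0.66 ± 0.14 SE, adjusted p = 0.020 in edgeR), and was called in 2 of the 6 fits without a library.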

How the data were processed

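Total RNA of HaCaT cells was sequenced by BGI from stranded libraries of polyadenylated RNA, and the authors had the reads mapped to GRCh38.p12. The program that counted them, its version and its use of strand are not given in the sources used here, so overlapping and antisense genes are uncertain. Kit and platform are RNeasy and DNBSEQ in the labels but PureLink and BGISEQ in the study's methods. For each gene of each library the authors deposited an expected count (not scaled for depth), an average gene length and the FPKM, which the authors scaled by that length and the library's fragments. Genes not listed in a library were counted as 0, and 16178 of 16199 gene numbers matched the RefSeq table used for symbols.

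Expected counts were rounded and fitted with edgeR 4.0.16 in R 4.3.3 over all 9 libraries with 1 coefficient per group (6 residual degrees of freedom, TMM factors, filterByExpr, quasi-likelihood test). SE is the absolute log2 fold change over the square root of F. DEG thresholds are those of the study, which used DESeq2. Two-sided exact permutation tests of single genes (3 against 3) cannot give p under 0.1 and gave that value for every DEG named under the rule below. Alternatives used DESeq2 1.42.0 and limma 3.58.1 on log2(FPKM + 1) or log2(FPKM + 0.1). The fit was run on 3 sets of simulated counts with 200 of 12394 genes changed 2-fold and the same spread in every group. With edgeR 190 of the 200 were recovered, with 0 to 1 false calls. Smaller changes and the larger spread of the bleogen pB1 libraries were not simulated, so the calls of smaller changes were not tested in this way.

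Members and lists (502 genes in 14 lists) were chosen with earlier results of these data known. Named by rule were the 8 risers and 10 fallers with the largest change among DEGs with at least 50 mean counts and no overlap, the DEGs of each list with the smallest adjusted p (up to 8 for interferon and sterol, otherwise 4), and a set of pathway genes whatever their values. A few list members are counted in their lists but not reported here by name. Other list members and genes in no list were named after their values were seen. Coordinates are from GENCODE 44 on GRCh38, promoters from RefSeq on GRCh38.p14.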

Additional observations from a re-analysis of the deposited data

How the results depend on the processing

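The count of 183 DEGs lay between 146 and 221 under DESeq2, edgeR on 6 libraries, other scaling factors, other count filters, limma with a filter and a replicate block (186 DEGs, 29 higher and 157 lower). Same-numbered untreated and bleogen pB1 libraries deviated together with correlations of 0.21, −0.03 and 0.11, so the numbers were not taken as pairs, and not every library correlated best with its own number. Limma on log2(FPKM + 1) without a filter gave 99 DEGs (17 higher, 82 lower), 20 of the interferon list and 2 cell cycle genes higher by adjusted p alone. The adjusted p alone was met by 509 genes (193 higher, 316 lower), a |log2FC| of at least 1 by 31 (4 and 27), and edgeR's glmTreat against 0.5 by 5 (0 and 5). The 17 cell cycle genes became 32 with DESeq2 on 9 libraries and 37 on 6.

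Leaving out 1 library gave 102 to 436 DEGs, most without bleogen pB1 replicate 1 and fewest without untreated replicate 1 or bleogen pB1 replicate 3 (109 without bleogen pB1 replicate 2), with 13 to 100 higher and 88 to 336 lower. The interferon list then had 23 to 39 DEGs, the sterol list 11 to 13, fatty acid synthesis 8 to 10, the ATF4 list 3 to 5 (2 with limma without a filter), keratins and differentiation 1 to 5, tubulins 1 to 5 and cell cycle genes by adjusted p 0 to 35. The cause was not tested, and a lone pair of libraries in a group was assumed to vary like the others. Of the 54 DEGs that the naming rule gave, 32 were called under all 18 alternatives that give single genes and DOCK8 under the 16 that tested it, and 0 changed sign. Among named genes not called, the sign changed for EGFR (0.024 without bleogen pB1 replicate 2, range −0.14 to 0.024), ERRFI1 (0.0088 without bleogen pB1 replicate 3, range −0.075 to 0.0088), IL1B (−0.056 without bleogen pB1 replicate 2, range −0.056 to 0.12) and CXCL8 (−0.16 without untreated replicate 1 and −0.19 without bleogen pB1 replicate 2, range −0.19 to 0.74). Depth limits genes near the floor, such as TNF and CXCL8, and 16 DEGs had under 50 mean counts.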

Other observations

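The genes in this part were chosen after their values were seen, from the 106 DEGs in no list (94 lower and 12 higher), and each adjusted p is from edgeR's quasi-likelihood test. No list or test stands behind the groups they are named in. Among genes of lipid metabolism were PNPLA3, a lipid droplet acyltransferase and hydrolase (2.72, 2.7 and 3.16 FPKM in untreated and 1.65, 1.29 and 1.42 FPKM in treated libraries, log2 fold change −0.99, edgeR adjusted p = 0.0028), ACSL1, which activates long-chain fatty acids (31.7, 32.1 and 32.9 against 22.9, 17.9 and 21.2 FPKM, −0.65, edgeR adjusted p = 0.00064), PCYT2 of phosphatidylethanolamine synthesis (25.8, 26.9 and 28.2 against 17.1, 16.1 and 17.6 FPKM, −0.68, edgeR adjusted p = 0.0012) and the glucose-sensing factor MLXIP (17.5, 15.9 and 16.6 against 11.7, 9.29 and 10.9 FPKM, −0.66, edgeR adjusted p = 0.00081). Among antiviral or interferon-induced genes outside the list, the log2 fold changes were −0.96 for LGALS9, −0.77 for PARP10, −0.64 for SLFN5, −0.58 for NMI and −0.50 for TRIM5.

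Other DEGs stood alone. SCNN1A, a subunit of the epithelial sodium channel, had 36.5, 32.5 and 34.6 FPKM in untreated and 21.1, 15.4 and 20.1 FPKM in treated libraries (log2FC −0.89 ± 0.09 SE, adjusted p = 0.00033 in edgeR). CYP1B1, a cytochrome P450 induced through the aryl hydrocarbon receptor, had 7.03, 5.97 and 7.12 against 3.94, 3.33 and 3.95 FPKM (log2FC −0.86 ± 0.10 SE, adjusted p = 0.00048 in edgeR). The circadian repressors BHLHE40 (−0.88, edgeR adjusted p = 0.0044) and BHLHE41 (−0.59, edgeR adjusted p = 0.0051) were both lower, as were the TNF family ligands CD70 (−0.72, edgeR adjusted p = 0.011) and TNFSF9 (−0.72, edgeR adjusted p = 0.00094) and the p53 targets TP53INP1 (−0.99, edgeR adjusted p = 0.029) and BBC3 (−0.67, edgeR adjusted p = 0.027). NRARP, a feedback inhibitor of Notch signalling, was higher, with 16.04, 15.8 and 15.7 against 24.1, 25.4 and 25.8 FPKM (log2FC 0.64 ± 0.07 SE, adjusted p = 0.00051 in edgeR). DIO2, which activates thyroid hormone, had 1.01, 1.31 and 1 against 1.81, 1.73 and 1.79 FPKM (log2FC 0.65 ± 0.15 SE, adjusted p = 0.037 in edgeR), against 0.01, 0.04 and 0.02 FPKM with EGF. STRA6, a receptor of retinol-binding protein with a mean of 14.5 counts, had 0.38, 0.47 and 0.47 against 0.15, 0.05 and 0.07 FPKM (log2FC −2.27 ± 0.37 SE, adjusted p = 0.0046 in edgeR).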
